A study of Mus musculus with 6 samples.

Results

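The genes described here encode the enzymes that attach ubiquitin to proteins and remove it again. They were chosen by symbol, as all listed genes beginning with Ube, Usp, Fbxo, Fbxl or Fbxw, with Cul, Trim, Rnf, March or Uba and a digit, or with Otu or Herc, leaving out Usp18. The rule found 171 of the 8191 genes in the deposited table, namely 41 Rnf, 28 Usp, 26 Trim, 26 Ube, 12 Fbxo, 9 Fbxl, 8 Cul, 7 Fbxw, 6 Otu, 4 Herc and 4 Uba genes, and no gene beginning with March. The annotation used here, GENCODE M21, has 372 protein-coding genes with such symbols, and the 201 that are not in the table were not analysed here.

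mRNA-seq was done on myeloid-derived suppressor cells (MDSCs), immature myeloid cells that restrain T cells, from the spleens of aged mice of 3 genotypes with 2 samples each. The genotypes were WT (BALB/c), Tnfr1-/- (lacking TNF receptor 1) and Tnfr2-/- (lacking TNF receptor 2), both knockouts on a BALB/c background, and all mice were 18 to 24 months old and untreated. Cells were purified with a commercial MDSC isolation kit as CD45+Gr1+CD11b+ cells, and those of 5 mice were pooled for a sample. The receptor was absent from every cell of the knockout mice, not from MDSCs alone, and no young mice were sequenced.

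Ubiquitin is a small protein that is joined to other proteins in a cascade. An activating enzyme (E1) charges it, a conjugating enzyme (E2) carries it, a ligase (E3) chooses the target, and deubiquitinases remove it. Chains of one linkage send a protein to the proteasome, whereas other linkages, including linear chains, build signalling platforms, and the platforms that form at TNF receptors on the way to NF-κB and JNK are a textbook example. RING, TRIM, HECT and cullin ligases differ in how they hold the E2 and the target, and cullins work only after the ubiquitin-like protein NEDD8 has been joined to them.

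Expression was given in FPKM (sequenced fragments relative to the length of the gene's transcript and the size of the library), so levels can be compared between genes, but the read counts behind them are unknown. Tnfrsf1b, the gene of TNF receptor 2, stood at 112 and 115 FPKM in WT, 47.8 and 69.6 FPKM in Tnfr1-/- and 11.3 and 14.3 FPKM in Tnfr2-/-, lowest in the samples labelled as its knockout, and the gene of TNF receptor 1 was not analysed here. Every one of the 8191 genes had a one-way ANOVA p-value under 0.05 over the genotypes when it was recomputed, so the table was already picked for differences. Summed FPKM was 344714 to 346870 in WT and 133604 to 155248 in the knockouts, and the median gene was 0.74 lower on the log2 scale in Tnfr2-/- than in WT as deposited, but 0.03 lower after median-ratio scaling, which sets the typical gene equal between samples. Whether WT and knockout values were made alike cannot be told apart from genotype, so counts of genes called against WT are given on both scales. Values marked as after scaling are median-ratio scaled, and all other values are as deposited.

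The samples also differed in markers of cell types. The 3 listed neutrophil markers of 9 (Retnlg, Csf3r and Mmp9) summed to 13.7 to 15.4 FPKM in WT against 2732 to 3070 FPKM in Tnfr1-/- and 1522 to 2450 FPKM in Tnfr2-/-. All 8 macrophage markers were lower in both knockouts, with sums of 3060 to 3201 FPKM in WT against 279 to 321 FPKM in Tnfr1-/- and 355 to 390 FPKM in Tnfr2-/-. Of the other lists, 2 of 4 monocyte markers (19.6 to 19.8 FPKM in WT against 131 to 160 FPKM in Tnfr1-/- and 303 to 330 FPKM in Tnfr2-/-) and 4 of 5 B cell markers (46.5 to 46.9, 318 to 382 and 167 to 299 FPKM) were listed and higher in both knockouts. The thinner lists held Ccnb1 and Birc5 as the 2 of 5 proliferation genes (61.9 to 67.3 FPKM in WT against 7.88 to 14.2 FPKM in Tnfr1-/- and 8.52 to 13.8 FPKM in Tnfr2-/-) and 2 of 5 T cell markers (8.47 to 10.8, 32.7 to 38.7 and 15.6 to 19.1 FPKM). Of 5 dendritic cell markers 3 were listed (7.08 to 9.30, 1.85 to 2.86 and 4.66 to 5.39 FPKM), of 8 erythroid markers only Slc4a1 (0, 1.95 to 2.30 and 0.409 to 0.816 FPKM), and of 3 NK cell markers none. The part of these cell types in the changes below was not tested, and in such samples fewer cells of a type and less RNA per cell cannot be told apart.

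Against WT, the ubiquitin genes of Tnfr2-/- MDSCs held large changes in both directions. A gene was called when its Benjamini-Hochberg adjusted p-value over all 8191 genes was under 0.05 in limma on log2(FPKM + 1) and its fold change was over 1.5. As deposited, 31 of the 171 genes (18.1%) were higher, against 13.6% of all listed genes, and 75 (43.9%) were lower, against 57.1%. After median-ratio scaling, 56 (32.7%) were higher, against 21.8%, and 14 (8.19%) were lower, against 21%. Thus the balance of rises and falls turned round with the scale. On both scales the median ubiquitin gene lay above the median of all genes, at a log2 change of -0.52 against -0.74 as deposited and of 0.24 against -0.03 after scaling. Since all listed genes differ between genotypes, these shares describe the list and are no test of it. The p-values, standard errors and intervals of single genes come from the same samples by which the table was picked. Their nominal error rates therefore need not hold, here or below. The class counts below are likewise to be read beside the shares of all listed genes.

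All 31 genes called higher as deposited were also called higher after scaling, with the Tnfr2-/- samples wholly above the WT samples on both scales, as were 13.6% of all listed genes. Among the 75 genes called lower, 14 (8.19% of the 171, against 21% of all listed genes) were called lower on both scales in the same way, and these were Rnf128, Trim29, Trim47, Trim12a, Trim36, Ube2n, Rnf180, Trim30d, Trim5, Ube2e2, Usp14, Ube2m, Trim6 and Fbxo44. The scaling divided WT by 1.66 to 1.67 and the knockouts by 0.740 to 0.881, which raised the changes against WT. In the whole table all 1115 rises as deposited and all 1717 falls after scaling were called on both scales. Passing on both scales is therefore no separate check of a rise as deposited or of a fall after scaling. The account that follows turns on the genes called on both scales.

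Tnfr1-/- MDSCs were compared with the same 2 WT samples. As deposited, 32 genes (18.7%) were higher, against 14.1% of all listed genes, and 84 (49.1%) were lower, against 60.7%. After scaling, 59 (34.5%) were higher, against 23.3%, and 17 (9.94%) were lower, against 22.1%. The median ubiquitin gene changed by -0.58 as deposited and by 0.28 after scaling. Quantile normalization, which gives every sample the same distribution, was the third scale tried. It called 47 genes higher and 15 lower in Tnfr2-/- (20.6% and 22.6% of all listed genes) and 54 higher and 21 lower in Tnfr1-/- (21.2% and 25.1%). The knockouts share their controls, so likeness between their changes is not independent evidence, and their values are set side by side below.

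**Figure D1:**
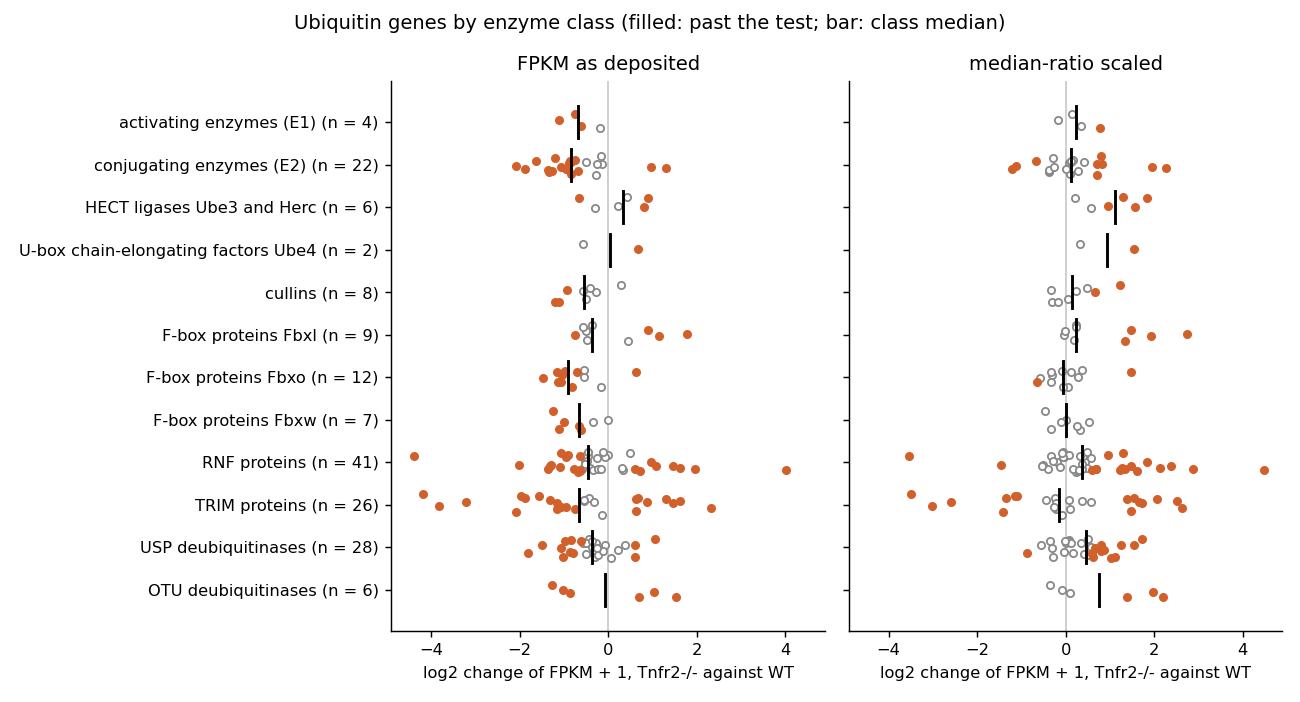
Log2 change of FPKM + 1 in Tnfr2-/- against WT for each of the 171 ubiquitin genes (points), by enzyme class, with FPKM as deposited (left) and after median-ratio scaling (right). Filled points passed the test and bars mark class medians. The 22 E2 genes have a median of -0.85 as deposited and 0.11 after scaling, whereas Rnf144a and Rnf128 lie at the 2 ends of the RING class on both scales.

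Of the 4 listed E1 genes, 3 were lower in Tnfr2-/- as deposited and none was after scaling, against 57.1% and 21% of all listed genes. Uba1, which charges most of the cell's ubiquitin, had 66.8 and 69.8 FPKM in WT, 53.3 and 57.5 FPKM in Tnfr1-/- and 61.3 and 58.3 FPKM in Tnfr2-/-. The WT samples were the highest as deposited, but the difference was not called (log2 change -0.19 ± 0.075 SE, limma adjusted p = 0.0568 for Tnfr2-/-), and after scaling it turned to 0.79 and was called higher. Uba2, which serves SUMO, and Uba3, which serves NEDD8, were among those lower as deposited (-0.61 and -0.74), and stood at 0.34 and 0.15 after scaling, neither of them called.

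The E2 genes were the most strongly expressed class, with a median WT level of 30.6 FPKM against 10.1 FPKM over all 171 genes. In Tnfr2-/-, 2 of 22 were higher and 15 lower as deposited, and 6 were higher and 3 lower after scaling. The whole table had 13.6% higher and 57.1% lower as deposited, and 21.8% and 21% after scaling. In Tnfr1-/-, 2 were higher and 17 lower as deposited, and 5 were higher and 4 lower after scaling. There the whole table had 14.1% higher and 60.7% lower as deposited, and 23.3% and 22.1% after scaling. Ube2n, which builds the chains that recruit kinases of the NF-κB pathway, had the largest fall among E2 genes on the log2(FPKM + 1) scale as deposited. It stood at 51.3 and 48.4 FPKM in WT, 8.30 and 8.70 FPKM in Tnfr1-/- and 10.2 and 11.9 FPKM in Tnfr2-/-. Both WT samples lay far above all 4 knockout samples. The log2 change was -2.08 ± 0.095 in Tnfr2-/- (limma adjusted p = 5.41e-05) and -2.42 in Tnfr1-/-, and -1.12 and -1.33 after scaling, where Ube2e2 was lower by more in Tnfr2-/- (-1.21).

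Ube2v1, a partner with which Ube2n builds those chains, fell as deposited but not after scaling. Its FPKM was 29.1 and 31.3 in WT, 13.8 and 16.0 in Tnfr1-/- and 14.6 and 18.2 in Tnfr2-/-, a log2 change of -0.85 in Tnfr2-/- that turned to 0.10 after scaling. Its transcript is hard to tell apart from others, since 83.2% of its 50-base windows are found elsewhere in the transcriptome, so its value is uncertain. For Ube2n this share is 10.7%.

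Ube2m, the E2 that joins NEDD8 to cullins, fell on both scales. It had 69.8 and 64.9 FPKM in WT, 18.9 and 16.7 FPKM in Tnfr1-/- and 20.3 and 21.7 FPKM in Tnfr2-/-, without overlap between WT and knockouts. The log2 change in Tnfr2-/- was -1.64 ± 0.090 as deposited (limma adjusted p = 8.95e-05) and -0.67 after scaling, and in Tnfr1-/- it was -1.87 and -0.76. Ube2e2 was the remaining E2 gene to fall on both scales, from 4.14 and 4.77 FPKM in WT to between 0.436 and 0.503 FPKM in the 4 knockout samples.

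Ube2b and Ube2d3 moved the other way. Ube2b, which acts in DNA damage tolerance and in histone ubiquitination, rose from 25.9 and 24 FPKM in WT to 71.0 and 56.7 FPKM in Tnfr2-/-, with 52.9 and 57.4 FPKM in Tnfr1-/-. Its log2 change in Tnfr2-/- was 1.31 ± 0.13 as deposited (limma adjusted p = 0.000500) and 2.27 after scaling. Ube2d3, an E2 that serves a wide range of ligases, stood at 71.6 and 70.7 FPKM in WT, 127 and 126 FPKM in Tnfr1-/- and 141 and 140 FPKM in Tnfr2-/-. The 3 genotypes did not overlap as deposited, and each pair of samples lay within a few FPKM (Tnfr2-/- against WT, log2 change 0.97 ± 0.068, limma adjusted p = 0.000179). After scaling Ube2d3 changed by 1.95 in Tnfr2-/- against WT, but overlapped between the knockouts (0.003 in Tnfr2-/- against Tnfr1-/-). Its close relative Ube2d2a differed from it, with 30.6 and 31.4 FPKM in WT, 25.7 and 24.1 FPKM in Tnfr1-/- and 28.5 and 28.0 FPKM in Tnfr2-/-, a change of -0.13 that did not pass as deposited and stood at 0.83 after scaling.

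Ube2l3, which serves HECT and RBR ligases including the ligase of linear chains, had 94.3 and 92.9 FPKM in WT, 37.1 and 37.6 FPKM in Tnfr1-/- and 45.5 and 58.2 FPKM in Tnfr2-/-. That is a log2 change of -0.85 in Tnfr2-/- as deposited and 0.13 after scaling. Of the cell division E2 genes, Ube2s, which extends chains for the anaphase-promoting complex, fell from 82.3 and 78.9 FPKM to 27.2 and 35.0 FPKM in Tnfr2-/- (-1.36), and Ube2t, of the Fanconi pathway, from 6.47 and 6.60 FPKM to 2.81 and 2.38 FPKM (-1.07). Neither was called in Tnfr2-/- after scaling (-0.38 and -0.26), but Ube2s, at 29.4 and 18.9 FPKM in Tnfr1-/-, was called lower there after scaling (-0.61, limma adjusted p = 0.0440), while both listed proliferation markers given above were lower in the knockouts.

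**Figure D2:**
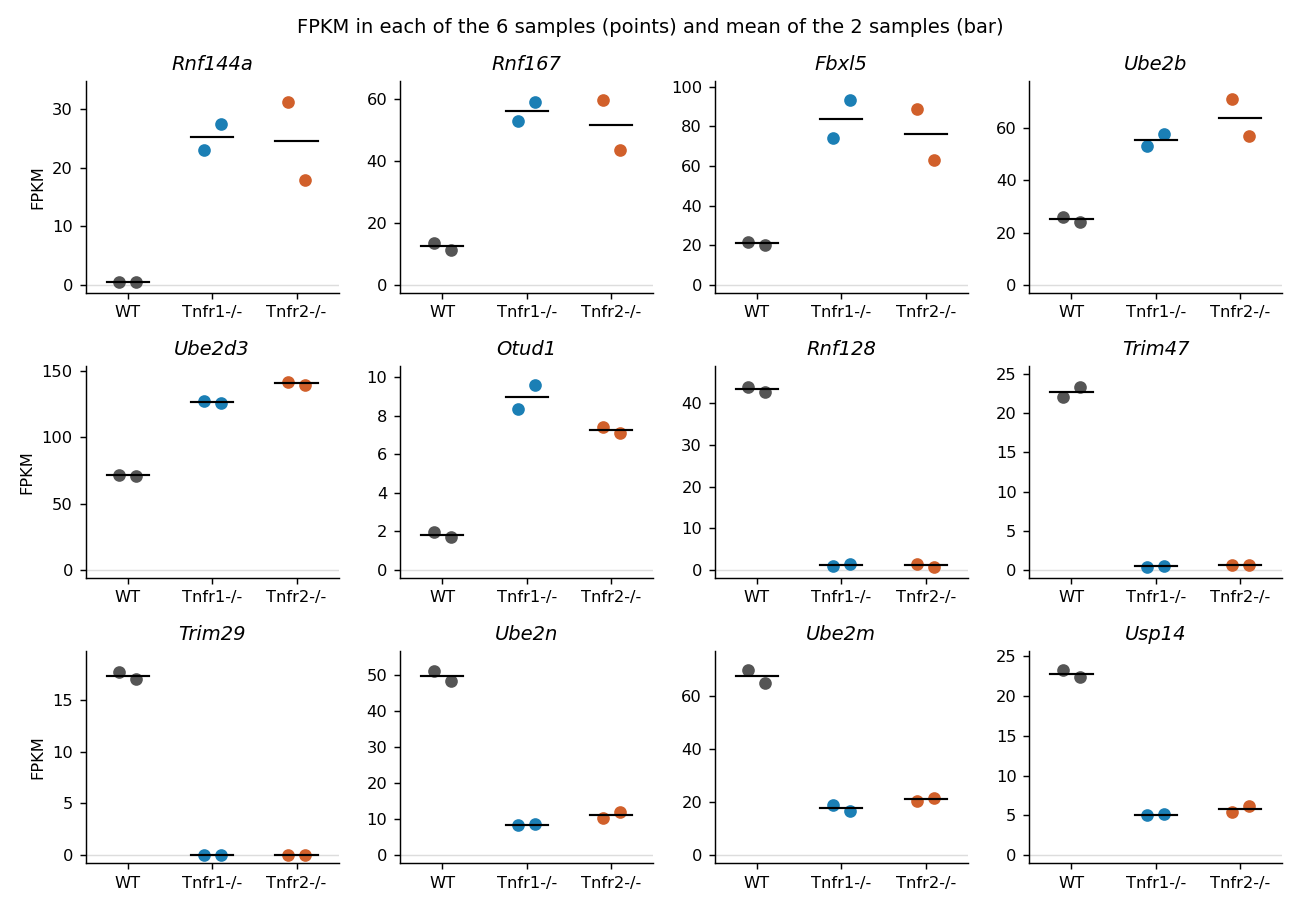
FPKM of 12 ubiquitin genes in each of the 6 samples (points, linear axis from 0, with its own range for each gene), with bars at the mean of the 2 samples of a genotype. The first 6 genes are higher in all 4 knockout samples than in both WT samples and the last 6 are lower, for example Rnf128 at 43.9 and 42.7 FPKM in WT and at most 1.54 FPKM in a knockout sample.

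Of 6 HECT ligases (Ube3a, Ube3c and Herc1 to Herc4), 2 were higher and 1 was lower in Tnfr2-/- as deposited, and 4 were higher and none lower after scaling, with class medians of 0.33 and 1.12. Over all listed genes, 13.6% were higher as deposited and 21.8% after scaling. In Tnfr1-/-, 3 were higher and none lower as deposited, and 5 were higher after scaling (14.1% and 23.3% of all listed genes were higher). Herc4 had 19.1 and 19.7 FPKM in WT, 31.1 and 33.8 FPKM in Tnfr1-/- and 39.8 and 34.4 FPKM in Tnfr2-/-, and all 4 knockout samples lay above WT (log2 change 0.90 ± 0.096 in Tnfr2-/-, limma adjusted p = 0.000663). Ube3a, the ligase lost in Angelman syndrome, rose from 3.60 and 3.34 FPKM to 7.22 and 6.41 FPKM (0.80). Ube3c fell as deposited (-0.66) and stood at 0.22 after scaling. Ube4a, a U-box enzyme that lengthens existing chains, rose from 8.26 and 7.89 FPKM in WT to 13.6 and 13.4 FPKM in Tnfr2-/- and 14.2 and 15.04 FPKM in Tnfr1-/- (0.67 ± 0.072 in Tnfr2-/-, limma adjusted p = 0.000676), and its paralog Ube4b was not called on either scale (-0.57 and 0.32).

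Cullins are the scaffolds of the largest ligase family. Of the 8 listed, none was higher and 3 were lower in Tnfr2-/- as deposited (Cul2, Cul4a and Cul9), and after scaling 2 were higher and none lower. All listed genes gave 13.6% higher and 57.1% lower as deposited, and 21.8% and 21% after scaling. Cul1, the scaffold of F-box ligases, had 25.04 and 26.2 FPKM in WT, 17.1 and 16.9 FPKM in Tnfr1-/- and 19.9 and 22.2 FPKM in Tnfr2-/- (-0.27 in Tnfr2-/-, 0.67 after scaling). Cul3, the scaffold of BTB ligases, had 19.9 and 20.5 FPKM in WT, 23.6 and 21.8 FPKM in Tnfr1-/- and 25.01 and 24.6 FPKM in Tnfr2-/-. All 4 knockout samples lay above both WT samples. The log2 change in Tnfr2-/- was 0.28 as deposited, under the fold threshold, and Cul3 was called higher in both knockouts after scaling (1.22 in Tnfr2-/- and 1.24 in Tnfr1-/-). Cul4a, which works with Ddb1, fell from 21.9 and 22.5 FPKM to 10.7 and 9.02 FPKM (-1.10, and -0.17 after scaling). Cul5, the scaffold of SOCS-box ligases, had 6.06 and 6.14 FPKM in WT and 3.12 and 4.49 FPKM in Tnfr2-/- (-0.58, short of the fold threshold, and 0.24 after scaling).

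F-box proteins bring substrates to Cul1. Among the 9 Fbxl genes 3 were higher and 1 was lower in Tnfr2-/- as deposited, among the 12 Fbxo genes 1 was higher and 8 were lower, and among the 7 Fbxw genes none was higher and 5 were lower. After scaling these counts became 4 and 0, 1 and 1, and 0 and 0. Shares of all listed genes were 13.6% higher and 57.1% lower as deposited, and 21.8% and 21% after scaling. Fbxl5, the iron-sensing receptor that removes iron regulatory protein Irp2, was the strongest. It had 21.8 and 20.4 FPKM in WT, 74.0 and 93.5 FPKM in Tnfr1-/- and 89.0 and 63.3 FPKM in Tnfr2-/-. Every knockout sample lay well above WT, although the replicates of each knockout differed by over 15 FPKM (log2 change 1.78 ± 0.20 in Tnfr2-/-, limma adjusted p = 0.000775, and 2.73 after scaling).

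Fbxl12 and Fbxl4 were the other Fbxl genes to rise on both scales, by 1.14 and 0.90 on the log2 scale in Tnfr2-/-. Of the Fbxo genes, Fbxo33 rose from 7.18 and 6.70 FPKM to 11.5 and 10.9 FPKM (0.62 ± 0.076, limma adjusted p = 0.00106), and Fbxo44 fell from 2.01 and 1.57 FPKM to 0.190 and 0.376 FPKM (-1.12, and -0.64 after scaling). Fbxw11, the β-TrCP receptor that removes the NF-κB inhibitor IκB, had 19.2 and 18.01 FPKM in WT, 11.6 and 9.89 FPKM in Tnfr1-/- and 12.0 and 11.6 FPKM in Tnfr2-/-. It was lower in all 4 knockout samples as deposited (-0.61 in Tnfr2-/-), but stood at 0.32 after scaling.

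The 41 RING finger (Rnf) genes held the widest span of the set. In Tnfr2-/-, 8 were higher and 14 lower as deposited, and 15 were higher and 2 lower after scaling. In Tnfr1-/-, 8 were higher and 16 lower as deposited, and 17 were higher and 3 lower after scaling. All listed genes gave 13.6% higher and 57.1% lower in Tnfr2-/- as deposited, and 21.8% and 21% after scaling. In Tnfr1-/- they gave 14.1% and 60.7%, and 23.3% and 22.1%. Rnf144a, a ligase of the RING-between-RING type, was near 0 in WT and far above it in every knockout sample. It had 0.499 and 0.547 FPKM in WT, 23.1 and 27.5 FPKM in Tnfr1-/- and 31.3 and 17.96 FPKM in Tnfr2-/-. The log2 change was 4.02 ± 0.27 in Tnfr2-/- (limma adjusted p = 0.000156) and 4.11 in Tnfr1-/-, and 4.49 and 4.71 after scaling. No knockout sample came near WT, while the Tnfr2-/- replicates lay on either side of the Tnfr1-/- ones.

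Rnf128 (GRAIL), a membrane ligase known for T cell anergy, showed the opposite. It had 43.9 and 42.7 FPKM in WT, 1.09 and 1.54 FPKM in Tnfr1-/- and 1.41 and 0.848 FPKM in Tnfr2-/-. The log2 change was -4.39 ± 0.17 in Tnfr2-/- (limma adjusted p = 3.60e-05) and -4.26 in Tnfr1-/-, and -3.53 and -3.31 after scaling. The knockouts did not separate from each other. Rnf180 also fell on both scales, from 3.73 and 3.42 FPKM to at most 0.161 FPKM in a knockout sample.

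Other RING genes rose. Rnf167, a lysosomal membrane ligase, had 13.5 and 11.3 FPKM in WT, 53.1 and 59.2 FPKM in Tnfr1-/- and 59.7 and 43.7 FPKM in Tnfr2-/- (1.96 ± 0.18 in Tnfr2-/-, limma adjusted p = 0.000393). Rnf125, which restrains RIG-I signalling, had 0.692 and 0.989 FPKM in WT, 5.23 and 7.33 FPKM in Tnfr1-/- and 5.83 and 3.67 FPKM in Tnfr2-/- (1.62 ± 0.24, limma adjusted p = 0.00210), with 15.6% of its windows shared with another gene. Both genes were higher in every knockout sample than in either WT sample. Rnf122, Rnf2 (the catalytic subunit of Polycomb complex PRC1), Rnf20 (a ligase of histone H2B) and Rnf121 also rose on both scales, with log2 changes in Tnfr2-/- of 1.09, 0.98, 0.71 and 0.62. Rnf13, an endosomal ligase, stood at 34.8 and 37.7 FPKM in WT, 22.3 and 21.03 FPKM in Tnfr1-/- and 26.0 and 21.8 FPKM in Tnfr2-/-, and its change of -0.58 in Tnfr2-/- fell just short of the fold threshold and turned to 0.38 after scaling.

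TRIM proteins are RING ligases with a coiled coil, and a number of them are antiviral factors. Of the 26 listed genes, 8 were higher and 13 lower in Tnfr2-/- as deposited, and 8 were higher and 7 lower after scaling. In Tnfr1-/- the same counts were 8 and 13, and 9 and 7. The shares of all listed genes were 13.6% and 57.1%, and 21.8% and 21%, in Tnfr2-/-. In Tnfr1-/- they were 14.1% and 60.7%, and 23.3% and 22.1%. In Tnfr2-/- no other class had as many falls on both scales (7 of 26 genes, against 21% of all listed genes). Among these, Trim5, Trim6, Trim12a and Trim30d belong to the cluster described below. Trim29, an atypical member without a RING, had 17.7 and 17.0 FPKM in WT, was listed at 0 in both Tnfr1-/- samples and had 0 and 0.0276 FPKM in Tnfr2-/-. Trim47 had 22.0 and 23.4 FPKM in WT, 0.417 and 0.516 FPKM in Tnfr1-/- and 0.659 and 0.693 FPKM in Tnfr2-/- (log2 change -3.82 ± 0.082 in Tnfr2-/-, limma adjusted p = 8.86e-06, and -3.01 after scaling). Trim36 fell from 5.85 and 4.80 FPKM to 0.574 and 0.391 FPKM in Tnfr2-/- and 0.338 and 0.342 FPKM in Tnfr1-/- (-2.09 in Tnfr2-/-). In all 3 genes the WT samples lay far above every knockout sample.

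Outside the cluster described next, Trim56, Trim33 (a corepressor of SMAD signalling), Trim11, Trim59 and Trim39 rose on both scales in Tnfr2-/-, by 1.30, 0.88, 0.68, 0.64 and 0.64 on the log2 scale. Trim56, a ligase of antiviral sensing, had 2.94 and 3.10 FPKM in WT, 10.9 and 11.9 FPKM in Tnfr1-/- and 8.98 and 8.87 FPKM in Tnfr2-/-, with no overlap among the 3 genotypes.

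Of the listed Trim genes, 8 lie within a stretch of 289 kb on chromosome 7 (GRCm38, 104218793 to 104507849). In genome order they are Trim6, Trim34a, Trim5, Trim12a, Trim34b, Trim12c, Trim30b and Trim30d. This is a family of recent copies, and their close relatives were listed in opposite directions, so that the sequences themselves matter for how the values can be read. Short coding stretches of 3 pairs are shown on the sense strand, each 59 identical bases followed by the first base at which the copies differ, in capitals. A read of 50 bases from the identical part cannot be assigned to either copy.
Trim34a, exon 2 (chr7:104247769-104247828, plus strand): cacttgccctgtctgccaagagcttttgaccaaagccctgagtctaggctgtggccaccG
Trim34b, exon 1 (chr7:104329586-104329645, plus strand): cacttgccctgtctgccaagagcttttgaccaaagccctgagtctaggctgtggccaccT
Trim12a, exon 2 (chr7:104306957-104307016, minus strand): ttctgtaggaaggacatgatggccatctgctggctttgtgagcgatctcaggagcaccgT
Trim12c, exon 2 (chr7:104347973-104348032, minus strand): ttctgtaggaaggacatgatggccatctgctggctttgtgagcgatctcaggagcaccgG
Trim5, exon 2 (chr7:104279478-104279537, minus strand): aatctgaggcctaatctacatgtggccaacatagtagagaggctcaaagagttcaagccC
Trim12c, exon 2 (chr7:104348093-104348152, minus strand): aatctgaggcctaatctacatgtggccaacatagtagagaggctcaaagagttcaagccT

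Over the whole coding sequence, 63.3% of the 50-base windows of Trim34a occur unchanged in Trim34b, 33.0% of those of Trim5 in Trim12c and 9.59% of those of Trim12a in Trim12c. Over whole transcripts the share of windows found in another gene was 59% for Trim34b, 41.3% for Trim34a, 38.1% for Trim5, 33.7% for Trim12c, 23.5% for Trim12a, 8.29% for Trim30d, 0.991% for Trim30b and 0 for Trim6. How reads that match more than 1 gene were counted is not given in the sources used here. The values of the 5 genes with large shares are therefore uncertain.

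Trim34a had 8.99 and 9.07 FPKM in WT, 5.13 and 6.75 FPKM in Tnfr1-/- and 4.59 and 5.32 FPKM in Tnfr2-/-. Its copy Trim34b had 0.202 and 0.106 FPKM in WT, 5.21 and 9.09 FPKM in Tnfr1-/- and 5.19 and 4.43 FPKM in Tnfr2-/-. The pair thus moved in opposite directions as deposited, by -0.76 and 2.33 on the log2 scale in Tnfr2-/- (0.11 and 2.63 after scaling). Their sum was 9.19 and 9.17 FPKM in WT, 10.3 and 15.8 FPKM in Tnfr1-/- and 9.78 and 9.75 FPKM in Tnfr2-/-, nearly level between WT and Tnfr2-/- as deposited. That level holds on the deposited scale only, since after scaling neither gene was lower in Tnfr2-/-.

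Trim12a had 8.46 and 8.19 FPKM in WT and was listed at 0 in all 4 knockout samples, for which no fold change is given. Trim12c had 10.01 and 10.2 FPKM in WT, 30.9 and 41.5 FPKM in Tnfr1-/- and 37.8 and 29.1 FPKM in Tnfr2-/- (1.62 ± 0.19 in Tnfr2-/-, limma adjusted p = 0.000843). Trim5 fell from 2.87 and 3.05 FPKM to 0.118 and 0.0366 FPKM in Tnfr2-/- (-1.88). The sum of Trim12a and Trim12c still rose, from 18.5 and 18.4 FPKM in WT to 37.8 and 29.1 FPKM in Tnfr2-/-.

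The 2 genes with little shared sequence also went apart, Trim30d from 10.4 and 10.1 FPKM in WT to 0.741 to 2.60 FPKM in the 4 knockout samples and Trim30b from 0.117 and 0.136 FPKM to 1.90 to 3.06 FPKM. Trim6, which shares no window, fell from 2.25 and 2.02 FPKM to at most 0.110 FPKM. Over the 8 genes the summed level was 43.3 and 42.9 FPKM in WT, 44.4 and 62.4 FPKM in Tnfr1-/- and 51.4 and 43.5 FPKM in Tnfr2-/-, so that as deposited a single Tnfr1-/- sample stood well above WT. After scaling the sums were 26.0 and 25.8 in WT, 57.9 and 84.3 in Tnfr1-/- and 65.0 and 49.4 in Tnfr2-/-. Relatives that are not listed, such as Trim30a, do not enter these sums.

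**Figure D3:**
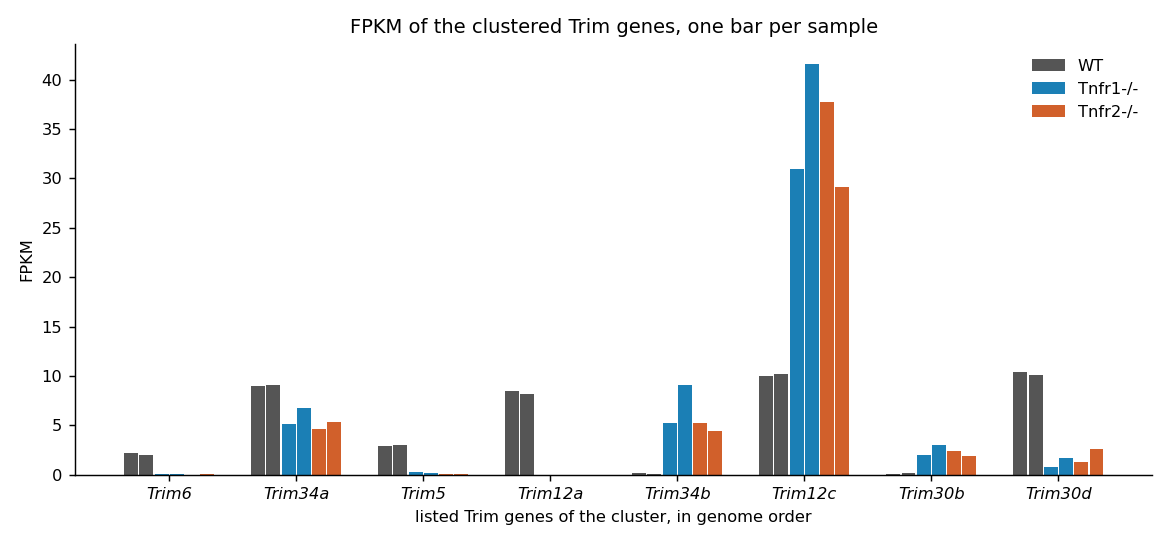
FPKM of the 8 listed Trim genes of the chromosome 7 cluster in genome order, with a bar for each of the 6 samples, coloured by genotype, on a linear axis from 0. Trim12a is listed at 0 in all 4 knockout samples while Trim12c reaches 29.1 to 41.5 FPKM there, and Trim34a and Trim34b, which share most of their coding sequence, move in opposite directions as deposited.

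Some of the copies also resemble each other around the start of transcription. RefSeq promoters (GRCm38.p6) span 300 bases, most of them before the start of transcription and the last 50 after it. Of the 171 genes 134 had an entry, and those of Trim5, Trim12a and Trim12c are shown since 1 of these genes rose and the other 2 fell. In a global alignment, the Trim5 promoter was identical to that of Trim12c at 263 bases (87.7%) and that of Trim12a at 247 bases (82.3%). Capitals mark matches to 3 motifs, searched on both strands, which do not overlap here: in order, GAGGAAGT (ETS-type), TTGCNNAA (C/EBP-type) and the ISRE-type motif of the interferon-stimulated element (GAAA, any 2 bases and GAAA), all read on the opposite strand.
Trim5 (chr7:104288057-104288356, minus strand): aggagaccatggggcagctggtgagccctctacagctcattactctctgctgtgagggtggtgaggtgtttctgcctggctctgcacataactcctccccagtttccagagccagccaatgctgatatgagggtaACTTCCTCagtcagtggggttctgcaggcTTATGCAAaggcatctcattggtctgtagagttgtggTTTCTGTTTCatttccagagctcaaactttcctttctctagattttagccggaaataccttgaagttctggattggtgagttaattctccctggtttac
Trim12a (chr7:104315446-104315745, minus strand): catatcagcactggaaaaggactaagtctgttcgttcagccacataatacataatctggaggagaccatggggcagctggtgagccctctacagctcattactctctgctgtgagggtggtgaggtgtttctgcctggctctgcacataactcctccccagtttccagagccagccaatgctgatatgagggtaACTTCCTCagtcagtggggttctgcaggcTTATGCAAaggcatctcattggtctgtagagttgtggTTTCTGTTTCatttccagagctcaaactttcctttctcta
Trim12c (chr7:104353300-104353599, minus strand): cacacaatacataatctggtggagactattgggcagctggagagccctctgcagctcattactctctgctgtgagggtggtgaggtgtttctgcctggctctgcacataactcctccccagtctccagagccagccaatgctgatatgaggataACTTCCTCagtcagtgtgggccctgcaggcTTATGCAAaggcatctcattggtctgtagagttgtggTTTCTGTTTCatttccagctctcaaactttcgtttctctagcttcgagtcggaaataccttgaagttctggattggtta

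The 3 motifs thus stood in the same order in the gene that rose and in the pair that fell. The ISRE-type motif occurred in 9 of the 134 promoters (6.72%) and in 943 of all 27025 (3.49%), and 5 of the 9 were in the cluster (Trim34a, Trim5, Trim12a, Trim12c and Trim30d), the others being Cul1, Rnf121, Rnf20 and Usp49. TTGCNNAA occurred in 11 of the 134 (8.21%) and in 2906 of all (10.8%), and GAGGAAGT in 3 (2.24%), which were the 3 shown, and in 887 of all (3.28%). A match describes the letters only.

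Ubiquitin-specific proteases (Usp) are the largest group of deubiquitinases. Of the 28 listed, 3 were higher and 9 lower in Tnfr2-/- as deposited, and 11 were higher and 1 lower after scaling. In Tnfr1-/-, 2 were higher and 11 lower as deposited, and 11 were higher and 1 lower after scaling. For all listed genes the shares were 13.6% and 57.1%, and 21.8% and 21%, in Tnfr2-/-. In Tnfr1-/- they were 14.1% and 60.7%, and 23.3% and 22.1%. Usp14, which trims chains on the proteasome, was the gene that fell on both scales. It had 23.3 and 22.4 FPKM in WT, 5.03 and 5.17 FPKM in Tnfr1-/- and 5.48 and 6.23 FPKM in Tnfr2-/-. The log2 change was -1.80 ± 0.089 in Tnfr2-/- (limma adjusted p = 6.74e-05) and -1.97 in Tnfr1-/-, and -0.88 and -0.92 after scaling.

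Usp5, which takes apart free chains, followed as deposited, with 33.0 and 33.9 FPKM in WT, 12.0 and 9.84 FPKM in Tnfr1-/- and 10.4 and 12.0 FPKM in Tnfr2-/- (-1.50, and -0.55 after scaling, short of the fold threshold). Usp21, which removes ubiquitin from the TNF receptor kinase RIPK1, fell from 15.1 and 15.9 FPKM in WT to 8.01 and 8.44 FPKM in Tnfr2-/- and 7.88 and 7.46 FPKM in Tnfr1-/- (-0.84 in Tnfr2-/-, but 0.08 after scaling). Usp7, which acts on p53 and Mdm2, stayed close to WT as deposited. Its values were 23.3 and 24.2 FPKM in WT, 26.6 and 26.8 FPKM in Tnfr1-/- and 25.5 and 24.4 FPKM in Tnfr2-/- (0.07 in Tnfr2-/-, limma adjusted p = 0.318, and 1.02 after scaling). Usp3, a deubiquitinase of histones, rose from 2.00 and 2.11 FPKM to 5.45 and 5.21 FPKM in Tnfr2-/- and 4.57 and 5.13 FPKM in Tnfr1-/- (1.05 ± 0.092 in Tnfr2-/-, limma adjusted p = 0.000357). Usp53 and Usp4, the other genes that rose on both scales, changed by 0.61 and 0.60.

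The 6 OTU deubiquitinases were split evenly in both knockouts, with 3 higher and 3 lower as deposited, and 3 higher and none lower after scaling. The shares of all listed genes in Tnfr2-/- were 13.6% and 57.1%, and 21.8% and 21%. In Tnfr1-/- they were 14.1% and 60.7%, and 23.3% and 22.1%. Otud1 had 1.96 and 1.72 FPKM in WT, 8.36 and 9.58 FPKM in Tnfr1-/- and 7.42 and 7.11 FPKM in Tnfr2-/- (log2 change 1.54 ± 0.11 in Tnfr2-/-, limma adjusted p = 0.000170). Otud7b (Cezanne), which limits NF-κB signalling, rose from 1.99 and 2.26 FPKM to 4.49 and 3.74 FPKM in Tnfr2-/- and 5.43 and 5.22 FPKM in Tnfr1-/- (0.71 ± 0.11 in Tnfr2-/-, limma adjusted p = 0.00240). Otud5 was the third to rise (1.04). Otulin, which cuts linear chains only, had 28.5 and 28.3 FPKM in WT, 11.5 and 10.9 FPKM in Tnfr1-/- and 12.0 and 15.2 FPKM in Tnfr2-/-, a fall as deposited (-1.02) that was not there after scaling (-0.07).

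The enzymes that write and erase the chains of TNF receptor signalling were also listed as a group, and 8 of 11 were in the table. On both scales Ube2d3 and Otud7b were higher in Tnfr2-/- and Ube2n was lower. Otulin, Ube2l3, Ube2v1 and Usp21 were lower as deposited only, and Ube2d2a was not called as deposited. Of 18 adaptors of these complexes outside the gene families, 14 were listed, and 5 were higher and 5 lower in Tnfr2-/- as deposited, and 8 were higher and none lower after scaling. All listed genes gave 13.6% higher and 57.1% lower as deposited, and 21.8% and 21% after scaling. Xiap, an inhibitor of apoptosis with a RING, rose from 4.23 and 3.87 FPKM to 20.2 and 17.8 FPKM (1.98 ± 0.092, limma adjusted p = 5.65e-05). Tab2, which binds chains for the kinase TAK1, rose from 14.7 and 13.2 FPKM to 46.7 and 47.0 FPKM (1.68), and Birc3 (cIAP2) from 15.3 and 14.9 FPKM to 29.2 and 35.5 FPKM (1.05). Tnip1, a brake on the pathway, fell from 38.5 and 39.5 FPKM to 11.8 and 14.5 FPKM (-1.51, and -0.55 after scaling, short of the fold threshold). Traf1 fell from 8.41 and 9.01 FPKM to 1.98 and 3.59 FPKM (-1.39). Traf5 fell from 15.6 and 16.0 FPKM to 5.11 and 8.01 FPKM (-1.18). Neither was called after scaling (-0.56 and -0.27).

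Of 14 ubiquitin and ubiquitin-like modifiers, 11 were listed, and in Tnfr2-/- none was higher and 8 were lower as deposited, and 1 was higher and 2 were lower after scaling. Over all listed genes, 57.1% were lower as deposited and 21% after scaling. Ubb, a gene that encodes ubiquitin itself, had 435 and 433 FPKM in WT and 221 and 193 FPKM in Tnfr2-/- (-1.07, but -0.08 after scaling). Ubl5, a ubiquitin-like protein, was lower on both scales and fell from 34.0 and 30.1 FPKM to 2.77 and 2.25 FPKM (-3.24).

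Among the 18 of 29 cullin cofactors that were listed, 1 was higher and 10 were lower in Tnfr2-/- as deposited, and 2 were higher and 1 was lower after scaling. For these and the next 2 lists, the shares of all listed genes were 13.6% higher and 57.1% lower as deposited. After scaling they were 21.8% and 21%. Dcun1d5, which helps to join NEDD8 to cullins, rose from 2.97 and 3.02 FPKM to 18.9 and 24.7 FPKM (2.499 ± 0.14, limma adjusted p = 8.97e-05), while Gps1, a subunit of the signalosome that takes NEDD8 off, fell from 30.5 and 31.1 FPKM to 6.97 and 7.75 FPKM (-1.93, and -0.99 after scaling). Of 16 further HECT and RBR ligases 9 were listed, with 3 higher and 3 lower as deposited, and 4 higher and 1 lower after scaling. Of 18 further deubiquitinases 14 were listed, with 3 higher and 5 lower as deposited, and 6 higher and 2 lower after scaling.

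The knockouts were then compared with each other, which asks how the loss of TNF receptor 2 differs from that of TNF receptor 1. The WT samples entered it through the spread shared in the model and through the choice of the table's genes. None of the 171 ubiquitin genes was called higher or lower by limma in Tnfr2-/- against Tnfr1-/-, against 0.842% and 0.61% of all listed genes, and none was after median-ratio scaling either, against 1.09% and 1.45%. With quantile normalization none was higher and 1 was lower (Fbxl12), against 1.48% and 1.43%. At an unadjusted p-value under 0.05, 15 were higher and 15 lower (8.77% each, against 15.9% and 8.01% of all listed genes), and after median-ratio scaling 8 were higher and 29 lower (4.68% and 17.0%, against 9.73% and 12.8%). Changes ran from -0.51 to 0.57 with a median of 0.04 (0.06 over all genes), 134 genes lay within 0.25 of 0 on the log2 scale, and no gene reached a fold of 1.5 on the scale of log2(FPKM + 1), whereas 454 listed genes (5.54%) did. That scale understates the change of low genes. After median-ratio scaling, Fbxl12 (-0.66) and Trim34b (-0.59) were past that size without passing the test. By the plain ratio of mean FPKM, 8 of the 171 differed by over 1.5 times (4.68%, against 17.98% of all listed genes), among them Usp12 with a ratio of 1.54 and Fbxo6 with one of 1.58. For 141 of the 171, the 95% interval of the change in log2(FPKM + 1) lay wholly within a fold of 1.5 in either direction. The median half-width of the interval was 0.25. For low genes such an interval does not bound the FPKM ratio, since Fbxw13 lay within it with a ratio of 0.044.

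For the remaining genes the interval reached past a fold of 1.5 on that log2(FPKM + 1) scale. At the ends, chosen after their values were seen, Usp12 had 13.2 and 15.02 FPKM in Tnfr1-/- and 18.2 and 25.3 FPKM in Tnfr2-/- (0.57, 95% interval 0.14 to 1.01), with 28.4 and 27.8 FPKM in WT. Ube2f, the second E2 of NEDD8, had 13.8 and 13.2 FPKM in Tnfr1-/- and 17.5 and 22.3 FPKM in Tnfr2-/- (0.52, 95% interval 0.17 to 0.87). Fbxl12 had 14.1 and 15.7 FPKM in Tnfr1-/- and 10.7 and 9.55 FPKM in Tnfr2-/- (-0.51, 95% interval -0.77 to -0.25). In these 3 genes the knockouts did not overlap, but the limma adjusted p-values were 0.131, 0.110 and 0.0698.

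Fbxw13 alone had an adjusted p-value under 0.05 (0.0255 in limma), short of the fold threshold. It had 0.296 and 0.352 FPKM in Tnfr1-/-, 0 and 0.0283 FPKM in Tnfr2-/- and 0.0363 and 0 FPKM in WT, which are low levels. Without Tnfr2-/- replicate 1, where the remaining Tnfr2-/- sample is assumed to vary like the others, 6 genes were called higher (among them Fbxo6, Rnf217, Ube2f, Ube2l3 and Usp12) and Fbxl12 was called lower, with 6.53% and 1.55% of all listed genes called. Hence the absence of calls between the knockouts rests in part on that sample.

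**Figure D4:**
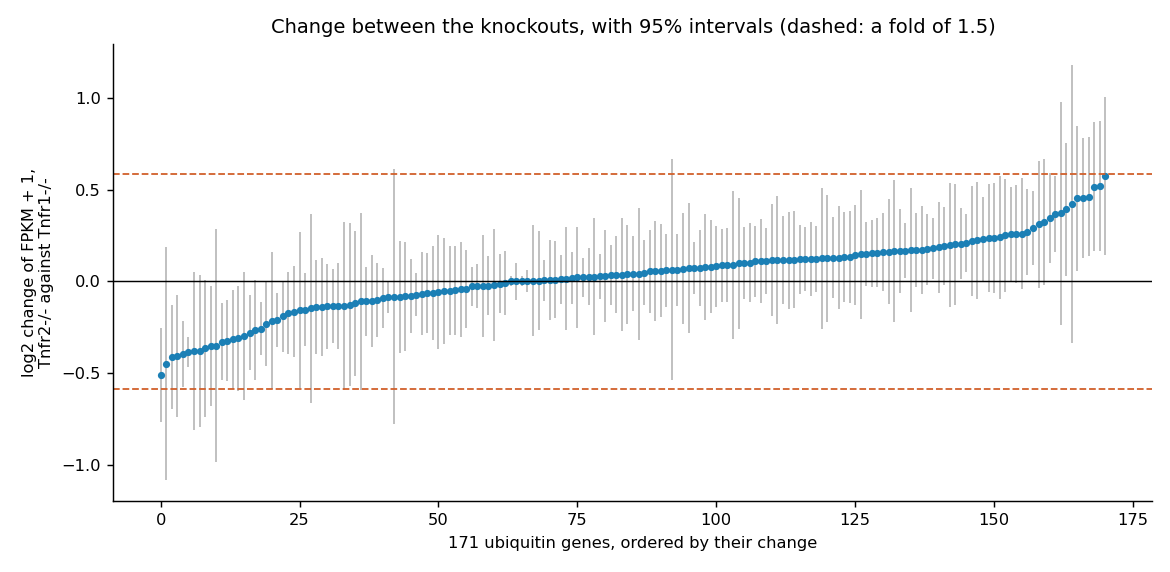
Log2 change of FPKM + 1 in Tnfr2-/- against Tnfr1-/- for the 171 ubiquitin genes in order of size (points), with 95% intervals from the limma fit (lines) and a fold of 1.5 in either direction (dashed). All points lie inside the dashed lines, from -0.51 to 0.57, and 141 intervals do as well. The lines refer to FPKM + 1 and do not bound the FPKM ratio of low genes.

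Finally, the changes were set beside the length of the transcripts. Over the 171 genes, the log2 change rose with the length of the longest transcript in Tnfr2-/- against WT (Spearman's rho 0.30, and 0.24 after scaling) and in Tnfr1-/- against WT (0.34 and 0.27), and fell with it in Tnfr2-/- against Tnfr1-/- (-0.27 on both). Over all 8166 genes with a length the values were 0.275, 0.29 and -0.19 as deposited, so the relation was not particular to ubiquitin genes. The points share their 6 samples. The HECT class had a median length of 7452 bases, and the E2 class one of 3350 bases. The part of length in the changes was not tested.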

How the data were processed

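The authors sequenced cDNA libraries of splenic MDSCs as single-end reads of 50 bases and deposited 1 table of FPKM values. The submitters' processing notes name mm10, FastQC and edgeR, and the aligner and the tool behind the FPKM values are not given in the sources used here. The deposited p-value column, the authors' ANOVA over the genotypes, was not used.

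The 171 genes and the gene lists were chosen with earlier results of these data known. Log2(FPKM + 1) values of all 8191 genes were fitted with limma 3.58.1 in R 4.3.3 (1 model of 3 genotypes, 3 residual degrees of freedom, eBayes with trend, two-sided), without a filter on low values. Simulated data with known changes were used to test the model. With 2 samples a group an exact permutation test cannot go below 0.333. The samples of a genotype come from separate experiments on pooled mice, and p-values measure the spread between them.

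The named genes (39) were those with the largest rise and fall in each class and overall (5 each way) called in Tnfr2-/- against WT on both scales without overlap, and the listed members of 5 short lists of TNF signalling, interferon-linked, proteasome-bound, scaffold and cell division enzymes, and a few genes are not reported here by name. Others (the Trim cluster, genes completing a count, extremes between knockouts) were chosen after their values were seen. Positions and transcripts are from GENCODE M21 (GRCm38), where all 171 symbols matched. Of these genes 114 shared no 50-base window with another gene and 19 shared over 10%. Their mean level was 0.0151 to 113 FPKM, with 14 under 1 FPKM.

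Alternatives were a pseudocount of 0.1, a mean of at least 1 FPKM, only the 2 groups compared, eBayes without trend, a replicate block, median-ratio and quantile scaling, no fold threshold or one of 2, each sample left out and, added after seeing the data, the genes without the Trim cluster. Same-numbered samples did not deviate together (correlations 0.022, 0.030 and 0.046), so the numbers were not taken as pairs.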

Additional observations from a re-analysis of the deposited data

Results flagged for a closer look

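Usp24, a deubiquitinase, was singled out because its knockouts lay on opposite sides of WT as deposited. It had 8.74 and 8.11 FPKM in WT, 10.5 and 9.88 FPKM in Tnfr1-/- and 8.02 and 7.81 FPKM in Tnfr2-/-, so both Tnfr1-/- samples were above and both Tnfr2-/- samples below WT. The log2 change in Tnfr2-/- against Tnfr1-/- was -0.329 (limma adjusted p = 0.101), which did not pass. After median-ratio scaling both knockouts were above WT, by 1.26 in Tnfr1-/- and 0.79 in Tnfr2-/- on the log2 scale.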

How the results depend on the processing

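Scaling moved the comparisons with WT most. In Tnfr2-/- against WT, median-ratio size factors gave 56 ubiquitin genes higher and 14 lower (31 and 75 as deposited) with a median log2 change of 0.24, and quantile normalization 47 and 15 with 0.17. In Tnfr1-/- against WT they gave 59 and 17 (32 and 84 as deposited) with 0.28, and 54 and 21 with 0.15. Between the knockouts the median turned from 0.04 to -0.050 and -0.021. A fold threshold of 2 left 15 higher and 42 lower in Tnfr2-/- and 16 and 43 in Tnfr1-/-, and without a fold threshold 119 were lower in Tnfr2-/-. A pseudocount of 0.1 moved the medians to -0.67 and -0.80. Between the knockouts 1 gene was lower with a pseudocount of 0.1 and without a fold threshold (Fbxw13) and 1 with quantile normalization (Fbxl12). The cause was not tested.

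With each sample left out in turn, 28 to 31 genes were higher and 75 to 84 lower in Tnfr2-/- (median -0.57 to -0.49) and 32 and 82 to 85 in Tnfr1-/- (median -0.58 to -0.56). Between the knockouts 0 to 6 were higher and 0 to 1 lower (median 0.027 to 0.055), and the 6 and the 1 came without Tnfr2-/- replicate 1. With the replicate block 31 and 75 genes were called in Tnfr2-/-, 32 and 84 in Tnfr1-/- and 0 between the knockouts, and the block changed none of the 90 calls of named genes.

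Of 1167 values of named genes under the alternatives, 1079 kept direction and side of the threshold, 29 no longer passed, 26 newly passed and 33 changed direction, 19 with median-ratio and 14 with quantile scaling. With median-ratio scaling the log2 changes in Tnfr1-/- and Tnfr2-/- against WT that turned positive were 0.52 and 0.67 for Cul1, 0.26 and 0.24 for Cul5, 0.32 and 0.32 for Fbxw11, 0.39 and 0.38 for Rnf13, 0.46 and 0.11 for Trim34a, 0.82 and 0.79 for Uba1, 0.79 and 0.83 for Ube2d2a, 0.12 and 0.10 for Ube2v1 and 0.12 and 0.076 for Usp21, with 0.13 for Ube2l3 in Tnfr2-/-. With quantile normalization they were 0.34 and 0.49 for Cul1, 0.11 and 0.14 for Cul5, 0.10 and 0.13 for Fbxw11, 0.22 and 0.22 for Rnf13, 0.75 and 0.68 for Uba1 and 0.64 and 0.66 for Ube2d2a, with 0.25 for Trim34a in Tnfr1-/- and 0.024 for Ube2l3 in Tnfr2-/-. Without the Trim cluster 28 genes were higher and 70 lower in Tnfr2-/-.

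The depth behind the values is unknown, and 2 pools a genotype with 3 residual degrees of freedom limit every test.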

Other observations

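The 171 ubiquitin genes together summed to 2759 and 2736 FPKM in WT, 1988 and 2025 FPKM in Tnfr1-/- and 2133 and 2073 FPKM in Tnfr2-/-. As a share of the summed FPKM of all listed genes this was 0.800% and 0.789% in WT, 1.48% and 1.52% in Tnfr1-/- and 1.43% and 1.34% in Tnfr2-/-. The sum was thus lower in the knockouts and the share higher, with no overlap between WT and knockouts in either. Among listed genes these shares also depend on which genes passed the authors' filter.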
